A study of Homo sapiens with 6 samples.

Results

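The subunits of the 26S proteasome were taken as all rows of the deposited gene table whose symbol has the form PSMA, PSMB, PSMC or PSMD followed by a number, without the 3 interferon-inducible subunits PSMB8, PSMB9 and PSMB10. This rule found 36 of 60605 genes and used no measured value. The members comprise 7 alpha ring genes (PSMA1 to PSMA7), 7 beta ring genes (PSMB1 to PSMB7), 6 ATPases (PSMC1 to PSMC6), 11 non-ATPase subunits of the cap (PSMD1, PSMD2, PSMD3, PSMD4, PSMD6, PSMD7, PSMD8, PSMD11, PSMD12, PSMD13 and PSMD14), and 3 chaperones that carry PSMD names but are not part of the finished particle (PSMD5, PSMD9 and PSMD10). The remaining 2, PSMA8 of the testis and PSMB11 of the thymus, had 0 counts in all 6 libraries, and the other 34 passed the filter on low counts.

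The proteasome is the protease that degrades most ubiquitin-tagged proteins of the cell. Its 20S core is a barrel of stacked rings, in which alpha subunits gate the entrance and beta subunits hold the proteolytic sites, and its 19S cap binds ubiquitin chains, removes them and threads the substrate into the core with a ring of ATPases. The subunit mRNAs are known to be induced together by the transcription factor NRF1 (gene NFE2L1) when proteasome activity falls, and proliferating tumour cells depend on the particle.

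The libraries were made from MDA-MB-231 cells, a human triple-negative breast cancer line with mesenchymal features, and the comparison asks how the transcriptome differs after knockdown of the pseudouridine synthase PUS1. The 3 shControl libraries came from cells with a control hairpin and the 3 shPUS1 libraries from cells with a hairpin against PUS1, both delivered by lentivirus. The paper gives a pLKO.1 vector with puromycin resistance for the hairpins against PUS1 and does not name the vector of the control hairpin. Cells were selected with puromycin. The labels name the knockdown cells "knockdown-2" without saying what the number stands for. They call each library a "bio rep" but do not say whether these replicates came from separate transductions or cultures. The tests measure the spread between these libraries, and which sources of variation it covers is not known. The line's markers VIM, CD44, CAV1, AXL, MSN and LDHB were all above 74 FPKM (counts scaled by exonic length and library total) in every library, and ESR1, PGR, FOXA1, CDH1, PTPRC and CD3E were at or below 0.18 FPKM. KRT19 (51.1 to 98.6 FPKM) and CD68 (27.8 to 42.7 FPKM), listed as markers of luminal and haematopoietic cells, were detected, and GATA3 and EPCAM were between 1.55 and 3.12 FPKM.

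Library totals ran from 14241505 to 19625998 estimated counts, and the members took between 0.459% and 0.654% of them, the highest share being that of shControl replicate 2. Each of the 34 members had between 378 and 19689 counts in a library. PUS1 had CPM (counts scaled to library size with the TMM factor of edgeR) of 14.5, 27.5 and 12.1 in shControl and 6.57, 5.47 and 5.37 in shPUS1. All shPUS1 libraries were below all shControl libraries, with a log2 fold change of -1.62 ± 0.32 (SE, n = 3 against 3; edgeR quasi-likelihood test, Benjamini-Hochberg adjusted p = 0.0462), a call lost in 8 of the 17 alternative fits that kept the gene, and shControl replicate 2 was the highest here too. The log2 fold change of PUS1 without shControl replicate 2 was -1.19 (edgeR adjusted p = 0.00311). When voom estimated a weight for each library, shControl replicate 2 received a weight of 0.101 against 0.715 to 4.09 for the other libraries. Results for the members as a set are therefore given with and without shControl replicate 2, and those of single genes in part. Whether this library's difference bears on the results that follow was not tested beyond leaving it out.

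NRF1 binds antioxidant response elements together with small MAF proteins, and such elements upstream of subunit genes are the known route of their joint induction. The 250 bases before the RefSeq start site (build GRCh38.p14) were found for 31 of the 36 members; PSMA7, PSMB1, PSMB6, PSMB7 and PSMD4 had no entry. The core TGACNNNGC on either strand was present in 5 of these 31, against 11.03% of all 27305 promoters in the table, and the stricter TGACTCAGC, which the core includes, in 0 of 31 against 0.47%. The 5 windows are shown because they are the members on which this element can be seen. Each holds 60 of the bases before the start site in the direction of the gene, with 1 core match in capitals; the PSMD9 match reads on the opposite strand, and a second one of that promoter is not shown.
PSMB3 (chr17:38752611-38752670, plus strand): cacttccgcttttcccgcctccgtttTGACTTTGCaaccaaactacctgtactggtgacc
PSMD3 (chr17:39980744-39980803, plus strand): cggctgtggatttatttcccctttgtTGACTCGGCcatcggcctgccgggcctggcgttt
PSMD5 (chr9:120843023-120843082, minus strand): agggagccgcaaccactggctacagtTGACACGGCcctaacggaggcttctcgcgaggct
PSMD9 (chr12:121888615-121888674, plus strand): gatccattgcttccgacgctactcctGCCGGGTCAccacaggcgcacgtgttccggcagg
PSMD12 (chr17:67366709-67366768, minus strand): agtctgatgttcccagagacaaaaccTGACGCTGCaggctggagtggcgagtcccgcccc
The first base of the match lies 104 bases before the start of PSMB3 and 37 bases before that of PSMD3. The match is 134 bases before the start of PSMD5 and 165 bases before that of PSMD12. Members with the core had a median log2 fold change of -0.23 (5 genes) and the 24 tested members without it -0.24. The difference was not tested, and the 5 members without a promoter entry are in neither group. The letters CCAAT, searched after the values had been seen, were found in 15 of 31 members and 33.04% of all promoters, and the ETS core CCGGAAG in 8 of 31 and 8.82%, each on either strand.

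The level of the members differed widely on the FPKM scale and less on the scale of CPM. Mean FPKM over 6 libraries ran from 5.60 for PSMD9 to 188.7 for PSMD2, with a median of 32.3, while the mean CPM of 31 of 34 members lay between 60 and 240. Exonic length as listed in the deposited table, which joins the exons of all transcripts of a gene, ran from 1168 to 15795 bases, and across the 34 genes Spearman's rho between this length and FPKM was -0.81, against -0.11 between length and CPM. FPKM is divided by this length, and genes are not independent replicates. PSMD2, the largest scaffold subunit of the cap together with PSMD1, stood apart on the scale of CPM, with 938 CPM against 232 CPM for the next member, PSMA7. On the FPKM scale it had 188.7 against 132.2 for PSMA7, and both were close in shControl replicate 2 (202 and 197 FPKM). The plot of FPKM by library shows how far the subunits lie apart and that shControl replicate 2 lies at the top of most columns.

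**Figure D1:**
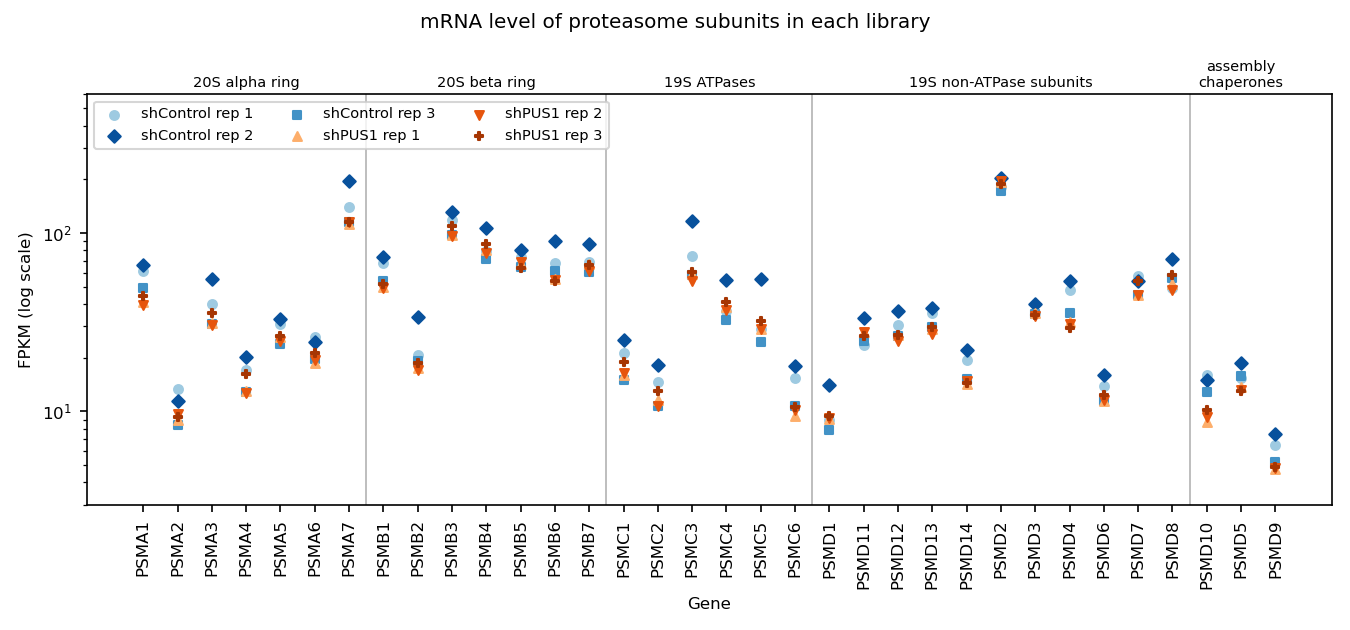
FPKM of the 34 detected members (log axis) in each of 6 libraries, ordered by part of the particle; each point is 1 library. PSMD2 and PSMA7 are the highest on average and PSMD9 the lowest, and shControl replicate 2 is the highest library of 30 genes on the scale of CPM.

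No member passed an adjusted p of 0.05 in either direction. Of the 34 members 0 were called lower (0.841% of 14748 genes tested) and 0 higher (1.74%), and PSMD10 had the smallest adjusted p, 0.0671 by edgeR's quasi-likelihood test. At an unadjusted p under 0.05, 7 members were lower (12.8% of all genes) and 0 higher (12.6%). The log2 fold change was below 0 for 32 of 34 members (52.7% of all genes), with a median of -0.24 over the members and -0.03 over all genes, and a range of -0.62 to 0.07. In 7 members all shPUS1 libraries lay below all shControl libraries (17.3% of all genes), and in 0 above (18.8%). The count without overlap and lower was 11 when library totals were used without TMM (19.7% of all genes) and 13 after quantile normalization (18.2%). In RNA of whole cultures, fewer cells of a kind and less RNA per cell cannot be told apart. By DESeq2, 3 members were called lower, PSMD10 (adjusted p = 0.00855), PSMA1 (0.0457) and PSMD4 (0.046), where 6.42% of 13030 genes with an adjusted p were.

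Within the control group the members deviated together. shControl replicate 2 was the highest of the 6 libraries for 30 of 34 members (88.2%, against 34.4% of all genes), and shControl replicate 1 for the other 4, PSMA2, PSMA6, PSMD7 and PSMD10. shControl replicate 3 was the lowest for 18 of 34 (52.9%, against 12.7% of all genes). On the log2 scale, shControl replicate 2 lay a median of 0.45 above the mean of the other two control libraries for the members and 0.02 for all genes. The mean of the shPUS1 libraries was below shControl replicate 2 for 34 of 34 members, below shControl replicate 1 for 26 and below shControl replicate 3 for 12, where the shares over all genes were 50.2%, 51.1% and 51.3%. For 19 members the 3 shPUS1 values all lay between the lowest and the highest control value, as for 27.6% of all genes.

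**Figure D2:**
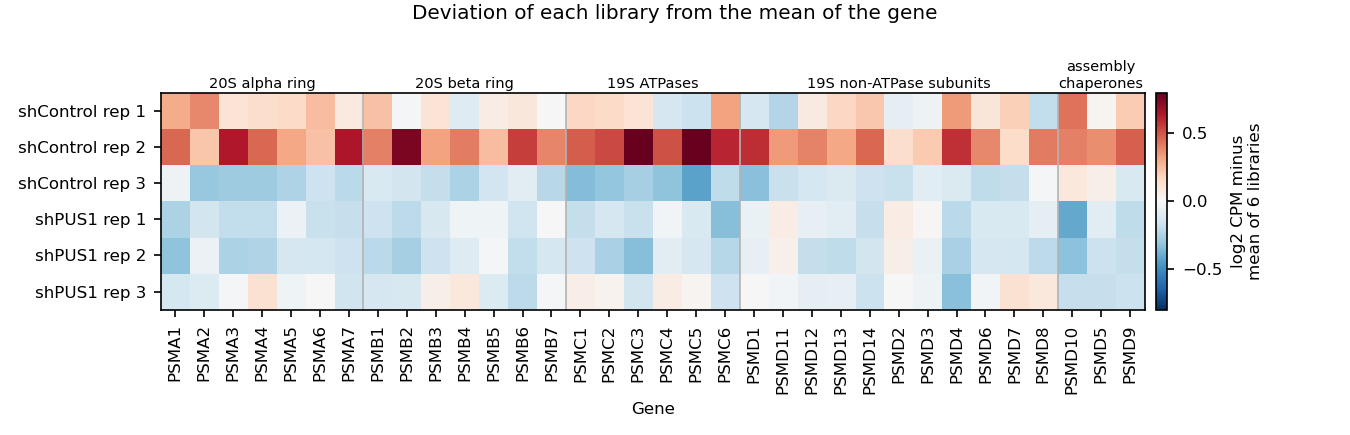
Heat map of log2 CPM minus the mean over the 6 libraries for each member (columns) and library (rows), red for above and blue for below the mean. The row of shControl replicate 2 is red throughout, the row of shControl replicate 3 mostly blue, and the 3 shPUS1 rows are pale and mostly blue.

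The shPUS1 libraries were alike. The SD of log2 CPM was smaller in shPUS1 than in shControl for 34 of 34 members and for 84.3% of all genes, with medians over the members of 0.071 and 0.315, and over all genes of 0.121 and 0.316. Without shControl replicate 2 the median log2 fold change of the members was -0.07, 25 of 34 were below 0 (52.2% of 15130 genes), 3 were lower at an unadjusted p under 0.05 (17.2%), and only PSMD10 was lower at an adjusted p under 0.05 (1 of 34, against 8.79% of genes). Without shControl replicate 3 the median was -0.39 and 22 members were lower at an unadjusted p under 0.05 (16.1%). PSMD4 (adjusted p = 0.0466) and PSMC6 (0.0495) were past the adjusted threshold in the same edgeR test. The share of all genes past that threshold was not counted for this fit, so these calls stand without that comparison. With the other libraries left out in turn, no member passed the adjusted threshold. At an unadjusted p under 0.05, 4 members were lower without shControl replicate 1 (12.9% of all genes), 3 without shPUS1 replicate 1 (6.97%), 2 without shPUS1 replicate 2 (6.48%) and 2 without shPUS1 replicate 3 (7.74%).

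**Figure D3:**
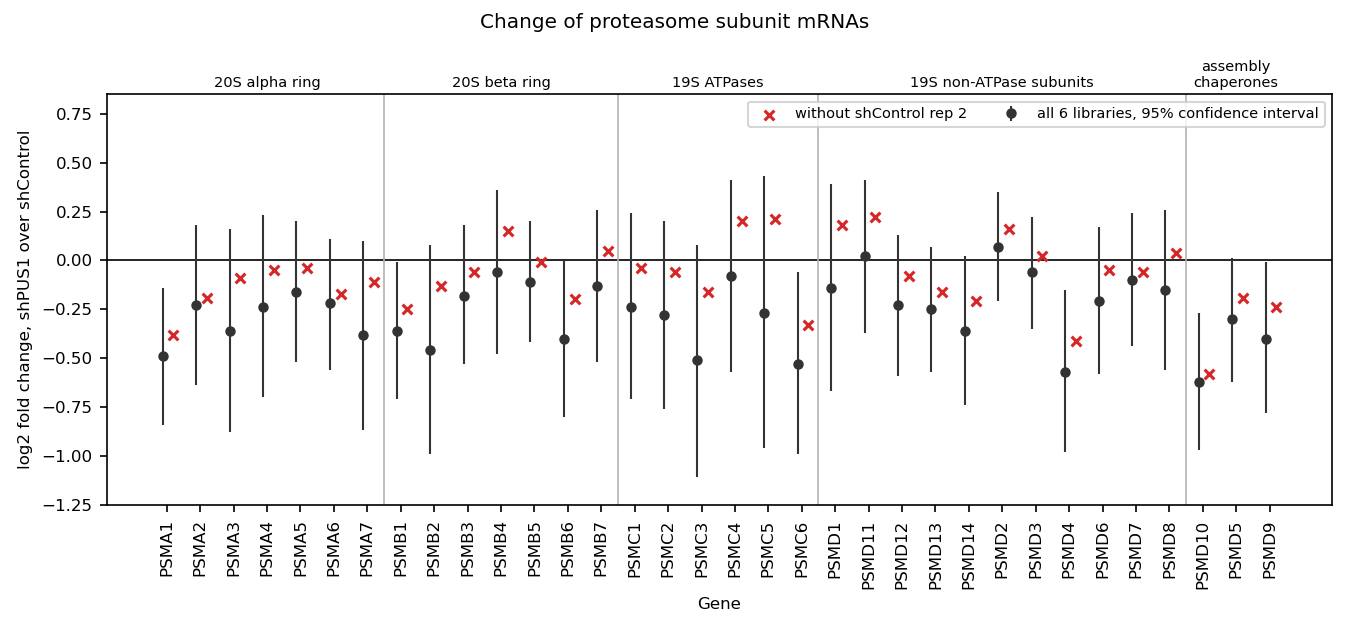
Log2 fold change of shPUS1 over shControl for each member; circles with bars are the edgeR estimate from 6 libraries with its 95% confidence interval, and crosses the estimate without shControl replicate 2. Most crosses lie nearer to 0 than the circles, and those of PSMD10 (-0.58), PSMD4 (-0.41) and PSMA1 (-0.38) are the lowest.

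The 7 alpha subunits form the outer rings of the core, whose tails close the channel until an activator docks. All 7 had a log2 fold change below 0, from -0.49 to -0.16 with a median of -0.24, and 7 of 7 were below 0 without shControl replicate 2 as well, with a median of -0.11. PSMA1 (ENSG00000129084, chr11:14504874-14643635) was the member of this ring with the smallest p. Its CPM was 184 (shControl replicate 1), 207 (replicate 2) and 146 (replicate 3), against 126 to 137 in shPUS1. The groups did not overlap, and the log2 fold change was -0.49 ± 0.15 (SE, 95% confidence interval -0.84 to -0.14; edgeR adjusted p = 0.107). Without shControl replicate 2 it was -0.38. PSMA1 shares 15.4% of its transcript stretches of 100 bases with another gene, so part of its reads may have been split between both. The same limit holds for PSMA2 (13.9%), PSMA6 (11.3%) and the ATPase gene PSMC1 (17.5%).

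PSMA7 had the highest mRNA level of the alpha ring on both scales. Its CPM was 240, 354.5 and 195 in the shControl libraries and 200, 202 and 203 in the shPUS1 libraries. The 3 shPUS1 values were nearly equal and lay just above the lowest control, so the log2 fold change of -0.38 ± 0.21 (SE; edgeR adjusted p = 0.285) became -0.11 without shControl replicate 2. PSMA3 went from -0.36 to -0.09 in the same way. PSMA2 and PSMA6, for which shControl replicate 1 was the highest library, moved less, from -0.23 to -0.19 and from -0.22 to -0.17.

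Among the beta subunits, PSMB5, PSMB6 and PSMB7 carry the proteolytic sites with chymotrypsin-like, caspase-like and trypsin-like activity, and PSMB5 is the main target of bortezomib. PSMB5 (ENSG00000100804, chr14:23016543-23035230) had CPM of 112, 128 and 96.8 in shControl and 105, 107 and 99.8 in shPUS1. The 3 shPUS1 values sat inside the control range, with a log2 fold change of -0.11 ± 0.13 (SE, 95% confidence interval -0.42 to 0.20; edgeR adjusted p = 0.623). That estimate was -0.01 without shControl replicate 2. PSMB7 (chr9:124353465-124415444) had 121, 160 and 104 CPM in shControl and 121, 110 and 120 CPM in shPUS1, again inside the control range, with a log2 fold change of -0.13 ± 0.17 (SE; edgeR adjusted p = 0.645).

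PSMB6 (ENSG00000142507, chr17:4796144-4798502) was the catalytic subunit whose groups separated. It had 97.1, 134 and 86.0 CPM in shControl and 81.4, 79.5 and 78.7 CPM in shPUS1. The gap between the lowest control and the highest knockdown library was small beside the range of the controls, and the log2 fold change was -0.40 ± 0.17 (SE; edgeR adjusted p = 0.192), or -0.20 without shControl replicate 2. The 3 catalytic genes were thus not alike in point estimate, but their differences from each other were not tested.

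The structural beta subunits spanned a wider range. PSMB1 (ENSG00000008018) had the smallest p of the ring, with 149, 168 and 116 CPM in shControl and 113, 109 and 116 CPM in shPUS1. The highest shPUS1 library lay only just under the lowest control (115.5 against 116.4 CPM), and the log2 fold change was -0.36 ± 0.15 (SE; edgeR adjusted p = 0.187). That estimate was -0.25 without shControl replicate 2. PSMB2 had the lowest estimate of the ring, -0.46, and -0.13 without shControl replicate 2, which lay 0.83 above the mean of the other controls on the log2 scale. PSMB4 was at -0.06 with all libraries and at 0.15 without shControl replicate 2. Over the 7 genes the median was -0.18, and -0.06 without that library, when 5 of 7 were below 0.

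The 6 ATPases PSMC1 to PSMC6 form the motor of the cap that unfolds substrates. Of the 5 groups of members they had the largest median excess of shControl replicate 2, which was the highest library for 6 of 6 and lay a median of 0.67 above the other controls on the log2 scale. PSMC5 had 121, 244 and 102 CPM in shControl and 125, 124 and 139 CPM in shPUS1. All 3 shPUS1 libraries were above both other controls and well below shControl replicate 2, so the log2 fold change was -0.27 ± 0.30 (SE; edgeR adjusted p = 0.602) with it and 0.21 without it. PSMC4 turned in the same way, from -0.08 to 0.20, and PSMC3 went from -0.51 to -0.16.

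PSMC6 (ENSG00000100519, chr14:52707178-52728590) had the smallest p of the ATPases. Its CPM was 113, 138 and 78.3 in shControl and 71.2, 76.8 and 80.4 in shPUS1. The groups overlapped, since shPUS1 replicate 3 was above shControl replicate 3, and the log2 fold change was -0.53 ± 0.20 (SE, 95% confidence interval -0.99 to -0.06; edgeR adjusted p = 0.159). Without shControl replicate 2 it was -0.33. The median of the 6 ATPases was -0.27, and -0.05 without that library.

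Of the non-ATPase subunits, PSMD4 is a receptor for ubiquitin chains, PSMD14 the metalloprotease that cuts the chain off the substrate, and PSMD11 a scaffold of the lid. PSMD4 (ENSG00000159352, chr1:151254709-151267479) had 142, 168 and 104 CPM in shControl and 96.7, 93.9 and 89.0 CPM in shPUS1. All shPUS1 libraries were below all controls, and the log2 fold change was -0.57 ± 0.18 (SE, 95% confidence interval -0.98 to -0.15; edgeR adjusted p = 0.111), or -0.41 without shControl replicate 2. It shares 2.1% of its 100-base stretches with another gene, the processed copy PIPSL.

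PSMD14 (ENSG00000115233) had 140, 166 and 108 CPM in shControl and 106, 109 and 107 CPM in shPUS1. The lowest control lay within the narrow shPUS1 range, with a log2 fold change of -0.36 ± 0.16 (SE; edgeR adjusted p = 0.216). That estimate was -0.21 without shControl replicate 2. PSMD11 (ENSG00000108671) was one of the 2 members with an estimate above 0. It had 163, 243 and 170 CPM in shControl and 200, 197 and 189 CPM in shPUS1, so the shPUS1 libraries lay between both lower controls and shControl replicate 2. Its log2 fold change was 0.02 ± 0.17 (SE; edgeR adjusted p = 0.938), and 0.22 without shControl replicate 2.

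PSMD2 (ENSG00000175166, chr3:184299198-184309050) was the other. It had 887, 1032 and 827 CPM in shControl and 976, 969 and 940 CPM in shPUS1, within the control range, with a log2 fold change of 0.07 ± 0.12 (SE, 95% confidence interval -0.21 to 0.35; edgeR adjusted p = 0.736). The other 7 non-ATPase subunits had estimates between -0.25 and -0.06. Over all 11 the median was -0.15, and 6 of 11 were below 0 without shControl replicate 2.

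The chaperones PSMD5, PSMD9 and PSMD10 hold pairs of ATPases while the base of the cap is put together and leave before it is finished. The shPUS1 libraries lay below all controls in 3 of 3, as in 17.3% of all genes. PSMD10 (gankyrin, ENSG00000101843, chrX:108084207-108091549) had 37.6, 36.9 and 29.6 CPM in shControl and 21.0, 22.2 and 24.6 CPM in shPUS1. The excess of shControl replicate 2 was small here, 0.14 on the log2 scale, and the log2 fold change was -0.62 ± 0.15 (SE, 95% confidence interval -0.97 to -0.27; edgeR adjusted p = 0.0671), or 0.652 times the control level. Without shControl replicate 2 it was -0.58 (edgeR adjusted p = 0.0198). PSMD10 was also the member with the lowest mean CPM, 28.7.

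PSMD9 had 55.8, 67.5 and 44.5 CPM in shControl and 42.1, 42.5 and 43.0 CPM in shPUS1, and PSMD5 had 66.4, 84.6 and 67.5 CPM in shControl and 61.5, 58.1 and 57.5 CPM in shPUS1. The shPUS1 values were below every control in both, with log2 fold changes of -0.40 ± 0.17 and -0.30 ± 0.14 (SE; edgeR adjusted p = 0.187 and 0.208). PSMD9 shares 14.8% of its 100-base stretches with neighbouring genes. The median of the 3 chaperones was -0.40, and -0.24 without shControl replicate 2.

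Summed over the particle, levels per length showed the same control library on top. The 14 core subunits added up to 826, 1009 and 688 FPKM in shControl and 685, 675 and 720 FPKM in shPUS1, and the 17 subunits of the cap to 696, 870 and 611 FPKM and 640, 625 and 659 FPKM. For both sums the shPUS1 libraries lay near shControl replicate 3 and below the other controls. The ratio of cap to core was 0.843, 0.862 and 0.888 in shControl and 0.934, 0.926 and 0.916 in shPUS1, without overlap. Without PSMD2 the ratios were 0.622, 0.662 and 0.638 in shControl and 0.651, 0.638 and 0.655 in shPUS1, which overlap. The ratio of the median CPM of cap subunits to that of core subunits was 1.10, 1.04 and 1.10 in shControl and 1.10, 1.11 and 1.18 in shPUS1, where the highest control (1.099) and the lowest knockdown library (1.101) were nearly equal. No test was made of these ratios, which are sums over members.

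**Figure D4:**
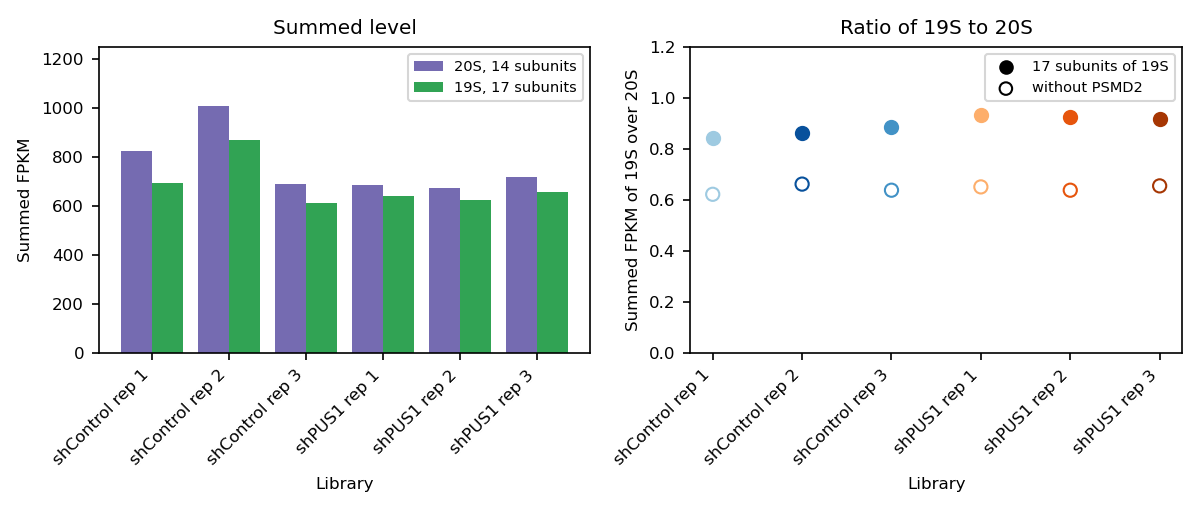
Left, bars of summed FPKM of the 14 core (20S) and 17 cap (19S) subunits in each library. Right, the ratio of both sums with all cap subunits (filled) and without PSMD2 (open); the filled shPUS1 points lie at 0.916 to 0.934, above the control points at 0.843 to 0.888, and the open points overlap.

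The partners of the cap outside the naming rule lay on both sides of 0. These 13 genes include the ubiquitin receptor ADRM1, the deubiquitinases UCHL5 and USP14 and shuttle factors of the RAD23 and UBQLN families. None passed an adjusted p of 0.05, 8 were below 0 and 5 above, and their median log2 fold change was -0.07 (0.03 without shControl replicate 2). Without that library 1 was called higher (9.8% of all genes), the ubiquitin ligase UBE3C (log2 fold change 0.39, edgeR adjusted p = 0.0445), which had 0.23 with all libraries. UCHL5 had 85.9, 83.7 and 74.9 CPM in shControl and 62.8, 64.0 and 66.3 CPM in shPUS1. The groups did not overlap, with a log2 fold change of -0.34 ± 0.11 (SE; edgeR adjusted p = 0.125) that was -0.33 without shControl replicate 2. ZFAND5, a zinc finger protein that activates the 26S particle, had 174, 162 and 155 CPM in shControl and 180, 186 and 189 CPM in shPUS1, with a log2 fold change of 0.18 ± 0.11 (SE; edgeR adjusted p = 0.34).

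Of 8 genes for inducible subunits, activators and PSMF1, 1 was called higher (1.74% of all genes) and 0 lower (0.841%). PSME4, which encodes the activator PA200 that caps the core in place of 19S, had 145, 157 and 177 CPM in shControl and 237, 256 and 242 CPM in shPUS1. All shPUS1 libraries were above all controls, and the mRNA rose by 0.62 ± 0.12 on the log2 scale (SE; edgeR adjusted p = 0.046). shControl replicate 2 lay between the other controls for this gene, and without it the change was 0.60 (edgeR adjusted p = 0.00861). The call was lost in 8 of 18 alternative fits, with estimates of 0.56 to 0.64.

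The other activators did not pass the test. PSME3, the nuclear activator PA28 gamma, had 148, 414 and 164 CPM in shControl and 197, 187 and 188 CPM in shPUS1. shControl replicate 2 alone was far above all other libraries, and the log2 fold change of -0.35 ± 0.36 (SE; edgeR adjusted p = 0.572) became 0.28 without it. PSME1 had 114, 106 and 83.0 CPM in shControl and 78.5, 78.1 and 84.1 CPM in shPUS1, with a log2 fold change of -0.33 ± 0.14 (SE; edgeR adjusted p = 0.2). PSME2, its partner in the PA28 ring, had 61.1, 81.2 and 50.7 CPM in shControl and 57.6, 55.8 and 62.7 CPM in shPUS1, with a log2 fold change of -0.13.

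The inducible catalytic subunits replace those of the standard core under interferon. PSMB8 had 51.3, 55.1 and 41.6 CPM in shControl and 50.0, 48.0 and 56.5 CPM in shPUS1, with overlap and a log2 fold change of 0.06 ± 0.15 (SE; edgeR adjusted p = 0.818). PSMB9 had 11.8, 13.8 and 10.1 CPM in shControl and 10.3, 9.19 and 9.21 CPM in shPUS1, with a log2 fold change of -0.32 ± 0.18 (SE; edgeR adjusted p = 0.314). PSMB10 had 3.21, 12.4 and 3.13 CPM in shControl and 4.73, 4.05 and 3.01 CPM in shPUS1. Here too shControl replicate 2 alone was high, and the estimate of -0.66 ± 0.53 (SE; edgeR adjusted p = 0.453) was 0.29 without it.

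Assembly chaperones outside the rule were 7 genes, of which 6 were below 0, with a median of -0.31 (-0.12 without shControl replicate 2). None was past an adjusted p of 0.05 by edgeR, while DESeq2 called 1 lower, PAAF1 (6.42% of genes with an adjusted p). POMP, the chaperone of the core's beta ring, had 76.3, 96.2 and 57.8 CPM in shControl and 59.6, 65.0 and 61.9 CPM in shPUS1, with a log2 fold change of -0.31 ± 0.19 (SE; edgeR adjusted p = 0.332). PAAF1, a further chaperone of the ATPase ring beside PSMD5, PSMD9 and PSMD10, had 14.5, 9.91 and 13.1 CPM in shControl and 6.12, 5.91 and 6.91 CPM in shPUS1. All shPUS1 libraries were below all controls, and shControl replicate 2 was the lowest control. The log2 fold change was -0.97 ± 0.21 (SE; edgeR adjusted p = 0.0522), and -1.12 without shControl replicate 2 (edgeR adjusted p = 0.0025). By DESeq2 the adjusted p was 0.00165. AKIRIN2, which brings the proteasome into the nucleus, had 41.8, 31.8 and 34.5 CPM in shControl and 39.3, 36.4 and 44.7 CPM in shPUS1, with a log2 fold change of 0.16.

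The transcription factors that act on subunit genes, with the enzymes that process NRF1, were 10 genes, and 7 had estimates above 0, with a median of 0.37 (0.20 without shControl replicate 2). None passed an adjusted p of 0.05, and 4 were higher (12.6% of all genes) and 1 lower (12.8%) at an unadjusted p under 0.05. The shPUS1 libraries lay above all controls in 6 of the 10 genes (18.8% of all genes) and below them in 2 (17.3%). DESeq2 called 2 higher (8.23% of genes with an adjusted p), MAFG (adjusted p = 0.0027) and MAFK (0.0393), and 1 lower (6.42%), NGLY1 (0.0402). Without shControl replicate 2, MAFG and the related small MAF gene MAFK (log2 fold change 0.68; edgeR adjusted p = 0.00857) were higher, against 9.8% of all genes. NFE2L1 had 305, 320 and 349 CPM in shControl and 367, 358 and 361 CPM in shPUS1. The shPUS1 libraries were above all controls by little, with a log2 fold change of 0.16 ± 0.11 (SE; edgeR adjusted p = 0.388). MAFG, a small MAF partner of NRF1, had 106, 80.0 and 105 CPM in shControl and 161, 158 and 140 CPM in shPUS1. The groups did not overlap, and the log2 fold change was 0.66 ± 0.15 (SE; edgeR adjusted p = 0.0575), or 0.53 without shControl replicate 2 (edgeR adjusted p = 0.00967). NGLY1, the glycosidase that NRF1 needs to become active, had 46.0, 47.1 and 34.8 CPM in shControl and 27.6, 28.4 and 32.4 CPM in shPUS1, with a log2 fold change of -0.53 ± 0.16 (SE; edgeR adjusted p = 0.102).

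**Figure D5:**
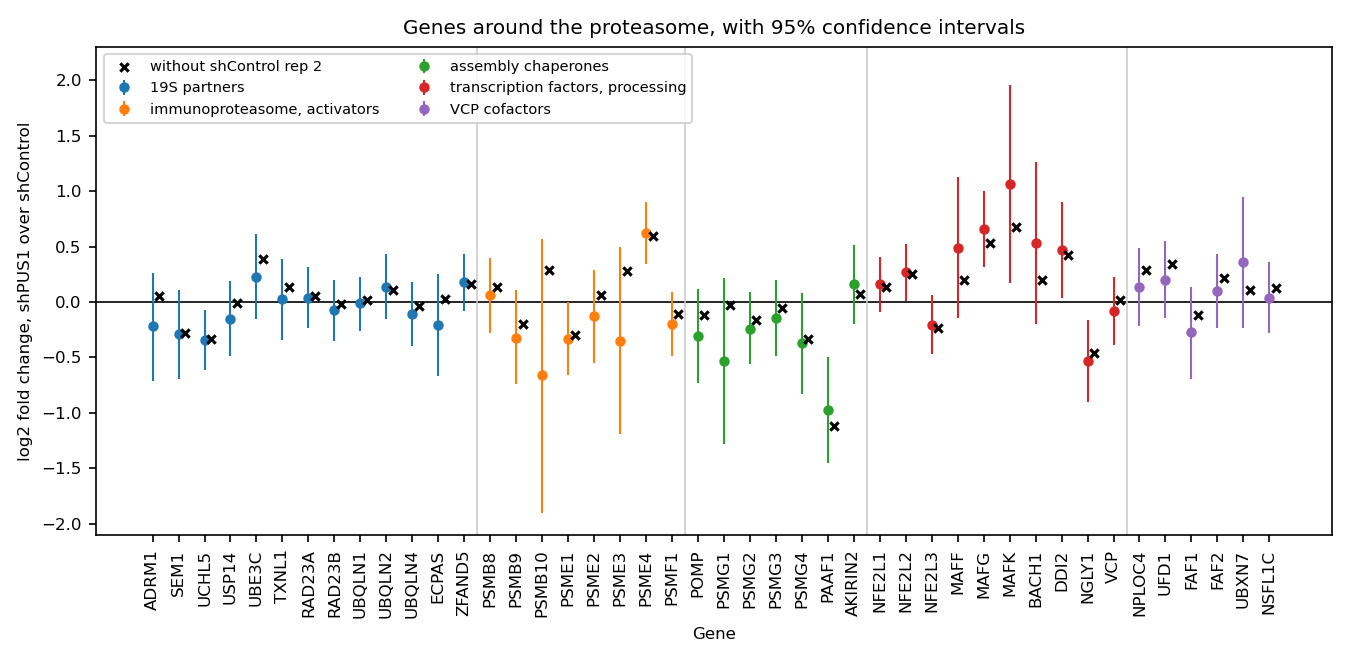
Log2 fold change of shPUS1 over shControl for the genes around the proteasome, grouped by list and coloured, with 95% confidence intervals from edgeR; crosses are the estimates without shControl replicate 2. PSME4 (0.62) is the only one past an adjusted p of 0.05, and PSMB10, PSME3, PSME2, ADRM1, ECPAS, UBQLN1 and VCP change sign without shControl replicate 2.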

How the data were processed

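Poly(A) RNA of 3 shControl and 3 shPUS1 libraries of MDA-MB-231 cells was sequenced in pairs on a NovaSeq instrument. The submitters' processing notes name HISAT2 and HTSeq 0.6.1; the genome build, annotation, strandedness and treatment of reads with several locations are not given in the sources used here. The deposited estimated counts per gene were made by the authors without normalization, and 29.8% to 31.8% of the positive values are not whole. The deposited FPKM were made by the authors from these counts, the exonic length and the library total, and recomputing them gave differences of at most 0.005. Coordinates of genes are those of the deposited table; all 36 members are in GENCODE release 29, 6 with the same start and end.

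After rounding, filterByExpr left 14748 genes. TMM factors were applied, and glmQLFit and glmQLFTest of edgeR 4.0.16 (R 4.3.3; prior count 2) gave the test. P-values were adjusted by the Benjamini-Hochberg method over all genes tested, the threshold was 0.05, and standard errors and intervals were derived from the F statistic. Log2 fold changes are shPUS1 relative to shControl. Alternatives were DESeq2 1.42.0, limma 3.58.1 on log2(FPKM + 1) and log2(FPKM + 0.1) (genes with mean FPKM of 1 or more), voom with sample weights, DESeq2 size factors, library totals, quantile normalization, no filter, a mean FPKM of at least 5, protein-coding genes only, no abundance trend, a replicate block and each library left out. Libraries with the same replicate number had residual correlations of -0.05, -0.03 and -0.19. Residuals taken around a mean of 3 libraries cannot show whether the numbers pair them. The main fit used no pairing. The test was also run on simulated data, and no result given here rests on that run. Tables and plots used Python 3.11.15, matplotlib 3.10.9, pandas 2.3.3, scipy 1.17.1 and numpy 2.4.6.

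Members, lists of related genes and the naming rule were set with earlier results of these data known. Values in every library were given for catalytic subunits, PSMD4, PSMD14, PSMD11, the member with the smallest p in each direction and group, and, in each related list, the gene with the smallest p in each direction, with NFE2L1, POMP, PUS1, the inducible subunits and activators. The genes of 1 related list are not reported here. PSMA7, PSMC5, PSMD5, PSMD9, MAFK, UBE3C and UFD1 were added after their values were seen. Promoters were those of RefSeq, and stretches of 100 bases shared between genes were counted in the transcripts of GENCODE release 29.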

Additional observations from a re-analysis of the deposited data

How the results depend on the processing

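Over 18 alternative fits the median log2 fold change of the members stayed below 0, from -0.39 (without shControl replicate 3) to -0.07 (without shControl replicate 2). Members lower at an adjusted p under 0.05 numbered 0 by edgeR, 3 by DESeq2, 4 by voom with sample weights and 1 with a mean FPKM of at least 5, and 0 to 2 with a library left out. Members lower at an unadjusted p under 0.05 numbered 7, and 4 with no abundance trend, 11 with no filter, 3 with the replicate block and 2 to 22 with a library left out. Members higher at an unadjusted p numbered 0, and 1 by voom and 0 to 1 with a library left out. Members without overlap numbered 7 lower, and 11 on library totals, on FPKM with either pseudocount and with a mean FPKM of at least 5, and 13 lower and 1 higher by quantile normalization. Shares of all genes were not counted for voom, no filter, mean FPKM of at least 5, no abundance trend, the replicate block or FPKM. Nor were shares at an adjusted p counted for fits without a library other than shControl replicate 2. Member counts from these fits therefore stand without that comparison. The replicate block changed no call of a member at an adjusted p under 0.05. Calls of PUS1 and PSME4 were each lost in 8 fits, the block among them. PAAF1 gained a call by DESeq2, by voom, with no filter, with protein-coding genes only and without shControl replicate 2. For MAFG a call was gained by DESeq2, by voom, with no filter and without shControl replicate 2. NGLY1 gained a call by DESeq2 and voom, and UCHL5 by voom. MAFK, UBE3C and UFD1 were not followed through each fit. No member passed an adjusted p under 0.05 and had a log2 fold change beyond 1 in size. Some estimates changed sign. By voom, and from lowest to highest with a library left out, they were 0.14 and -0.25 to 0.20 for PSMC4, 0.11 and -0.50 to 0.21 for PSMC5, 0.02 and -0.28 to 0.04 for PSMD8, 0.02 and -0.13 to 0.02 for PSMD3, 0.02 and -0.27 to 0.05 for PSMB7, 0.10 and -0.20 to 0.15 for PSMB4, 0.12 and -0.32 to 0.18 for PSMD1, 0.25 and -0.61 to 0.28 for PSME3, and 0.27 and -0.99 to 0.29 for PSMB10; in these the highest value came without shControl replicate 2. With a library left out, PSME2 ran from -0.29 to 0.06, PSMD11 from -0.08 to 0.22, PSMD2 from -0.01 to 0.16 and PSMB8 from -0.06 to 0.14, and PSMD11 was -0.01 by quantile normalization. The cause was not tested. With 3 libraries a group, an estimate of a member had a standard error of 0.12 to 0.30 on the log2 scale, which limits the size of difference that can be seen.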

Other observations

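VCP, the segregase that extracts ubiquitin-tagged proteins and passes them to the proteasome, had a log2 fold change of -0.08, and 5 of 6 genes for its cofactors were above 0 with a median of 0.12 and none past an adjusted p of 0.05. Without shControl replicate 2, UFD1 was called higher (log2 fold change 0.34, edgeR adjusted p = 0.0499), against 9.8% of all genes. UBXN7 had 160, 101 and 211 CPM in shControl and 209, 226 and 170 CPM in shPUS1 (log2 fold change 0.36 ± 0.25, SE; edgeR adjusted p = 0.4), and FAF1 had 63.5, 75.9 and 47.9 CPM in shControl and 52.3, 47.3 and 55.3 CPM in shPUS1 (log2 fold change -0.27 ± 0.18, SE; edgeR adjusted p = 0.367). The estimates without shControl replicate 2 were 0.11 for UBXN7 and -0.12 for FAF1. The groups overlapped for both genes. MAFF, MAFK and BACH1, named after their values were seen, had their lowest value in shControl replicate 2, with 58.4, 21.0 and 55.6 CPM there. That library was the lowest for 4 of the 10 genes of their list and for 4722 of 14748 genes tested.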
